A study of Homo sapiens with 6 samples.

Results

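The core-binding factor and ETO family comprised 7 of the 56638 genes in the count table, taken by name: the DNA-binding RUNX1, RUNX2 and RUNX3, their partner CBFB, and the ETO co-repressors RUNX1T1, CBFA2T2 and CBFA2T3. RUNX proteins recognise DNA through the Runt domain and bind it more tightly when joined to CBFB, which does not contact DNA itself. RUNX1 is needed for blood stem cell formation and for granulocyte and megakaryocyte development, and it both activates and represses genes. ETO proteins have no sequence-specific DNA contact of their own. They join complexes of E-proteins, TAL1 and GFI1 and bring co-repressors such as NCoR and histone deacetylases to them, and RUNX1T1 is the gene fused to RUNX1 in one form of acute myeloid leukaemia. SKI, the gene targeted here, encodes a transcriptional co-repressor of SMAD signalling that has been described as a partner of RUNX1, and the comparison asks how transcripts differ where it was targeted.

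The family was measured in HL60, an established human leukaemia line that resembles promyelocytes, grown in RPMI medium with 10% serum. There were 3 libraries of cells carrying a CRISPR/Cas9 deletion of SKI and 3 of CRISPR/Cas9 control cells. The titles number the knockout 3 and the control 1, without stating whether a number marks a clone, a pool or something else. All libraries of a group carry the same number, so effects of SKI and of the particular cells used cannot be told apart. Nothing in the labels states that the replicates came from different cultures. The p-values therefore rest on library-to-library spread alone, which could be purely technical.

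The 6 libraries held 47930276 to 58553247 counts each. Levels are given as CPM, counts scaled to library size, and 3 counts corresponded to 0.0509 to 0.0628 CPM. SKI itself stood at 59.6, 40.7 and 42.0 CPM in the knockout libraries, against 63.9, 83.5 and 88.5 CPM in the control libraries. Its log2 fold change was -0.73 (SE 0.19, edgeR adjusted p = 0.0282), so the mRNA was lower but present, and a count over the whole gene does not show which part was deleted. The SKI call was lost without knockout replicate 2 (0.0769), control replicate 2 (0.109) or control replicate 3 (0.136). With all 6 libraries it was also lost when scaled by library totals (edgeR adjusted p = 0.0673). The promyelocyte markers MPO, ELANE, AZU1, PRTN3 and CTSG summed to between 2628 and 8617 CPM in the knockout and between 11769 and 14123 CPM in the control. All 4 of them that had enough counts to be tested were called lower, beside 5.63% of all genes tested. None was without a read, and ELANE stayed under 1 CPM in every library. MPO, the most abundant, lost its call without knockout replicate 1 (adjusted p = 0.135), control replicate 1 (0.0600), control replicate 2 (0.108) or control replicate 3 (0.103). With all 6 libraries the MPO call was also lost in the DESeq2 Wald test (adjusted p = 0.0667). CTSG lost its call without knockout replicate 1 (0.123), control replicate 1 (0.143) or control replicate 3 (0.138). Of the other markers examined, those of T and NK cells summed to 12.2 to 15.3 CPM in the knockout and 12.9 to 17.9 CPM in the control, and NKG7 alone of that list reached 1 CPM. B cell markers summed to 18.0 to 25.3 CPM in the knockout and 23.2 to 37.6 CPM in the control, with MS4A1 without a read, and monocyte markers to 8.94 to 20.8 CPM in the knockout and 21.6 to 30.0 CPM in the control, with FCN1 without a read.

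RUNX genes start from a distal and a proximal promoter. The windows of 250 bases before the proximal start of RUNX1, both starts of RUNX3 and the distal start of RUNX2 are shown because RUNX factors are known to bind the hexamer TGTGGT, also in RUNX genes themselves. They come from RefSeq on GRCh38.p14, a later build than the counts, and 5 of the 7 members had an entry. The distal RUNX1 start was not analysed here. Each runs 5′ to 3′ on the strand of the gene, with TGTGGT, or its complement ACCACA, in capitals.
RUNX1, proximal start, chr21:34888700-34888949, minus strand: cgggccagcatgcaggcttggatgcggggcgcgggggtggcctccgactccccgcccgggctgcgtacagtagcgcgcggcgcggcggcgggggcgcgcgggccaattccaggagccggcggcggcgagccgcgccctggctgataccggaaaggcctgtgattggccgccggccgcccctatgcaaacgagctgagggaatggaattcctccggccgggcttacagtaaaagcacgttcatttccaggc
RUNX3, distal start, chr1:24965011-24965260, minus strand: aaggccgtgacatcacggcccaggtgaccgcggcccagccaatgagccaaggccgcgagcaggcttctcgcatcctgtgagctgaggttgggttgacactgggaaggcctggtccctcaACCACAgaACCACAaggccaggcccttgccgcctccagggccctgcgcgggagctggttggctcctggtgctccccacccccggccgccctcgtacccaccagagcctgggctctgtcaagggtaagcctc
RUNX3, proximal start, chr1:24930277-24930526, minus strand: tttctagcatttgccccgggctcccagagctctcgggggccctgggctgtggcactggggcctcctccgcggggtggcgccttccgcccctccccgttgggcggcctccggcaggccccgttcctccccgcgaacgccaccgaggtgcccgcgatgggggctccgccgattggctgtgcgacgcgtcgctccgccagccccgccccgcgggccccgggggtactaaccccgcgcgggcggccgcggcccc
RUNX2, distal start, chr6:45328080-45328329, plus strand: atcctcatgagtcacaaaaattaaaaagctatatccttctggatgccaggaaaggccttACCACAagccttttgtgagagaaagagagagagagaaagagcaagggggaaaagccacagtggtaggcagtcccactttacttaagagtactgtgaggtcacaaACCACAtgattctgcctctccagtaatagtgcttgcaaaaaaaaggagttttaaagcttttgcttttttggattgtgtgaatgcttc
The window of RUNX3's distal start held 2 copies, beginning 131 and 123 bases before the start, and that of RUNX2's distal start held 2, at 191 and 87 bases. The proximal RUNX1 window, the proximal RUNX3 and RUNX2 windows and those of CBFA2T2 and CBFA2T3 held none. Searched on both strands, TGTGGT was present in 11.0% of 35116 promoter windows of this length. The related hexamer TGCGGT, found in 5.84% of windows, was in none of the 7 windows of members. The gene counts do not separate transcripts of the distal from those of the proximal start.

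RUNX1 mRNA fell in the knockout to 37.2% of the control level, RUNX3 rose 1.61-fold, and RUNX2, CBFB, CBFA2T2 and CBFA2T3 did not pass the test. RUNX1T1 was practically without reads. Of the 6 members with enough counts to be tested, 1 passed an adjusted p of 0.05 as lower, where 5.63% of all 16340 genes tested were called lower, and 1 as higher, where 6.19% of all genes were. For 2 of the 6 every knockout value lay on one side of every control value, a share close to the 32.2% of all genes tested. The median log2 fold change of the 6 was 0.13, against -0.01 over all genes tested.

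**Figure D1:**
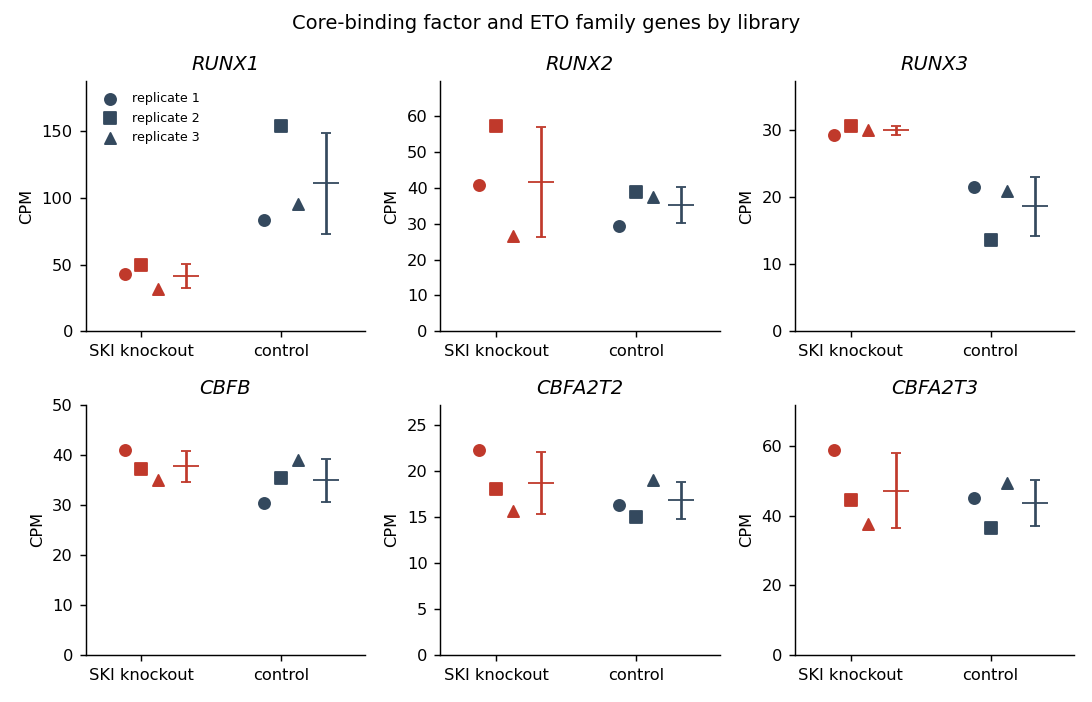
Level of each tested member in CPM on the vertical axis, starting at 0, with the 3 SKI knockout libraries in red on the left and the 3 control libraries in blue on the right of each panel. Symbols mark replicates 1 to 3 and the bar at the side shows the mean and SD (n = 3). RUNX1 is at 31.9 to 49.6 CPM in the knockout and 83.8 to 154 CPM in the control, RUNX3 is at 29.2 to 30.5 CPM in the knockout and 13.5 to 21.4 CPM in the control, and the groups overlap in the other 4 panels.

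RUNX1, the RUNX gene most used in blood progenitors, had 42.8, 49.6 and 31.9 CPM in the knockout libraries, against 83.8, 154 and 95.9 CPM in the control libraries. Every knockout library lay below every control library, and control replicate 2 stood well above the other two controls. The means were 41.4 ± 8.93 CPM in the knockout and 111 ± 37.8 CPM in the control (SD, n = 3 each). The log2 fold change was -1.43 (SE 0.24, 95% interval -1.95 to -0.91) with an edgeR adjusted p of 0.00364, so RUNX1 was 2.69-fold lower. Control replicate 2 moved the estimate most: without it the log2 fold change was -1.12 (adjusted p = 0.0141), and in the other 5 fits with 1 library left out it lay between -1.60 and -1.25, all of them past the threshold. After subtracting the median change of chromosome 21, where it lies, RUNX1 was at -1.36. The libraries with the highest RUNX1 of each group, replicate 2 in both, also had the highest summed promyelocyte markers of their group, at 8617 CPM in the knockout and 14123 CPM in the control. In the knockout the other two libraries followed in the same order, with 3510 CPM for replicate 1 and 2628 CPM for replicate 3. The control replicates 1 and 3 had 12823 and 11769 CPM, the reverse of their order in RUNX1. These sums were nearly all MPO, with 8538 CPM in knockout replicate 2 and 13987 CPM in control replicate 2. CTSG was lowest in control replicate 2, at 75.4 CPM against 125 and 99.1 CPM, while PRTN3 was highest there, at 14.3 CPM. In the knockout both were highest in replicate 2, but higher in replicate 3 than in replicate 1. The part of these markers in the RUNX1 result was not tested, and in bulk RNA fewer cells of a type and less RNA per cell cannot be told apart.

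RUNX3, which has roles in T and NK cells, sensory neurons and the gut, rose in the knockout and varied little between the knockout libraries. It had 29.2, 30.5 and 30.0 CPM in the knockout libraries, against 21.4, 13.5 and 20.8 CPM in the control libraries. All 3 knockout values lay above all 3 control values, and control replicate 2, which was highest in RUNX1, was lowest in RUNX3. The means were 29.9 ± 0.686 CPM in the knockout and 18.6 ± 4.41 CPM in the control (SD, n = 3 each), a log2 fold change of 0.69 (SE 0.19, 95% interval 0.27 to 1.11, edgeR adjusted p = 0.0386). The direction was the same whichever library was left out, with log2 fold changes from 0.50 to 0.80. The call was lost without knockout replicate 1 (adjusted p = 0.0880), knockout replicate 2 (0.0521), control replicate 1 (0.0531), control replicate 2 (0.150) or control replicate 3 (0.0848), and was kept without knockout replicate 3 (0.0281). Centred on chromosome 1, RUNX3 was at 0.68 with an adjusted p of 0.0494, close to the threshold. Only 2 of the 6 markers of T and NK cells, in which RUNX3 is active, passed the low-count filter. Of those 2, 0 were called higher and 1 lower, beside 6.19% and 5.63% of all genes tested. CD3D, CD3E, CD3G, CD2 and GNLY stayed under 1 CPM in every library. With so few markers, the part of such cells in the RUNX3 result was not tested.

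RUNX2, known as the regulator of osteoblast development, had 40.9, 57.2 and 26.5 CPM in the knockout libraries, against 29.4, 38.8 and 37.4 CPM in the control libraries. The knockout libraries spanned the whole control range, from the lowest to the highest value of the 6. The log2 fold change was 0.24 (SE 0.24, adjusted p = 0.567) with a 95% interval from -0.29 to 0.77, which spans both directions. RUNX2 lies on chromosome 6, where the median log2 fold change over 498 genes was 0.42, and with chromosome centring its estimate turned to -0.18. It also turned without knockout replicate 2, to -0.04, and was 0.50 without knockout replicate 3 (adjusted p = 0.0813). Of 11 genes that RUNX2 regulates in bone, 9 had too few counts to be tested. BGLAP, or osteocalcin, was at -0.52 (adjusted p = 0.364), and VEGFA, a growth factor made by many cell types, rose by 0.97 on the log2 scale (adjusted p = 0.00429). VEGFA lies on chromosome 6 too, and after centring it was at 0.55 (adjusted p = 0.0665).

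CBFB, the subunit shared by all RUNX proteins, had 41.1, 37.3 and 35.1 CPM in the knockout libraries, against 30.5, 35.5 and 39.1 CPM in the control libraries. The groups overlapped, and the log2 fold change was 0.11 (SE 0.16, adjusted p = 0.695), with a 95% interval from -0.23 to 0.45. Between libraries, the coefficient of variation of CBFB was 8.13% in the knockout and 12.3% in the control. The medians over all tested genes were 20.3% in the knockout and 13.1% in the control, so CBFB was below the median in the knockout and close to it in the control. By the same measure RUNX1 varied by 21.6% in the knockout and 33.9% in the control, RUNX2 by 37.0% in the knockout and 14.3% in the control, and RUNX3 by 2.29% in the knockout and 23.8% in the control. CBFA2T2 varied by 17.9% in the knockout and 12.2% in the control, and CBFA2T3 by 22.9% in the knockout and 15.3% in the control.

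The ETO co-repressor genes were carried by CBFA2T3 and CBFA2T2. CBFA2T3, also called ETO2 or MTG16, which works in haematopoietic stem cells and the erythroid lineage, had 59.0, 44.7 and 37.8 CPM in the knockout libraries, against 45.1, 36.5 and 49.6 CPM in the control libraries. Its log2 fold change was 0.11 (SE 0.19, 95% interval -0.31 to 0.53, adjusted p = 0.753). The sign depended on single libraries: it was -0.07 without knockout replicate 1 and -0.005 without control replicate 2. CBFA2T2, also called MTGR1, had 22.3, 18.0 and 15.7 CPM in the knockout libraries, against 16.3, 15.0 and 19 CPM in the control libraries. The groups overlapped here as well, with a log2 fold change of 0.16 (SE 0.19, 95% interval -0.25 to 0.56, adjusted p = 0.634). The labels do not say whether counting used the strand, and an exon of CBFA2T3 overlaps one of AC092384.2 on the opposite strand in GENCODE release 29, as one of RUNX1T1 does with AF181450.1.

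RUNX1T1, the founding ETO gene, had 1 read in knockout replicate 1 and none in the other two knockout libraries or in the 3 control libraries. With a floor of 3 counts its level was at or under 0.0628 CPM in every library, and it was not tested. In each library the other two ETO genes were thus the only ones with countable transcripts.

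**Figure D2:**
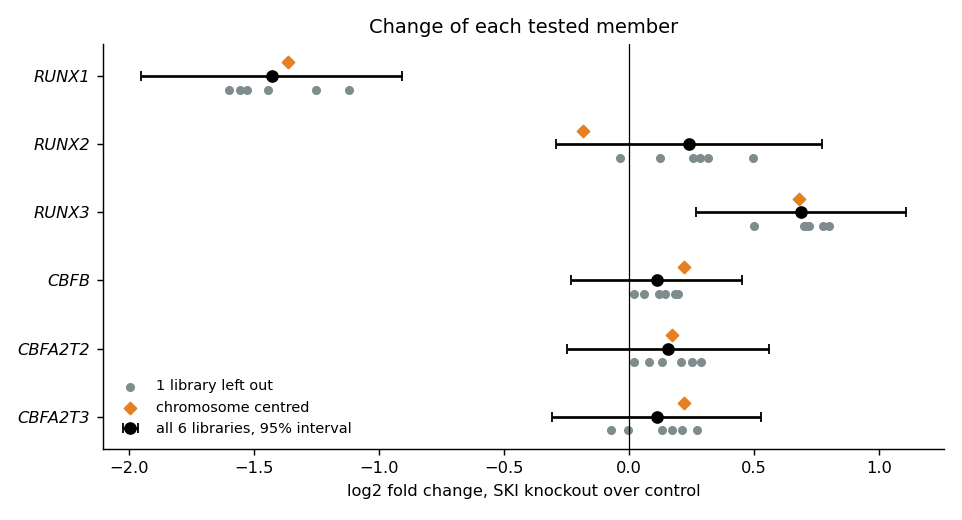
Log2 fold change of each tested member, SKI knockout over control, on the horizontal axis. Black points with bars give the estimate from all 6 libraries and its 95% interval, grey points the 6 estimates with 1 library left out, and orange diamonds the estimate after chromosome centring. RUNX1 lies below 0 and RUNX3 above 0 throughout, and for RUNX2 the diamond and 1 grey point lie below 0.

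Levels of different genes were compared per length, as TPM, a level corrected for gene length and library size, computed from the counts and the deposited gene lengths. In the knockout the mean order was CBFB at 29.6 TPM, CBFA2T3 at 25.8, RUNX3 at 20.8, RUNX2 at 16.6, RUNX1 at 8.64, CBFA2T2 at 6.43 and RUNX1T1 at 0.00159 TPM. The ranges of each pair of neighbours in that order overlapped, except those of CBFA2T2 and RUNX1T1. In the control the order was CBFB at 27.4 TPM, CBFA2T3 at 23.6, RUNX1 at 23.2, RUNX2 at 13.9, RUNX3 at 12.9, CBFA2T2 at 5.72 and RUNX1T1 at 0 TPM. There the range of RUNX1, 16.4 to 32.6 TPM, lay above that of RUNX2, 10.9 to 15.6 TPM, while RUNX2 and RUNX3 overlapped. RUNX1 therefore stood below RUNX2 and RUNX3 in the knockout and above both in the control. The deposited length of RUNX1 is 15574 bases, and where shorter transcripts are made its level per length is understated.

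Summed over the RUNX genes, the level was 50.2, 54.8 and 33.2 TPM in the knockout libraries, against 41.4, 57.8 and 50.8 TPM in the control libraries. The sums overlapped between the groups. RUNX1 gave 19.5%, 18.9% and 17.3% of the sum in the knockout libraries, against 39.5%, 56.4% and 40.4% in the control libraries. RUNX3 gave 45.0%, 39.5% and 55.2% of it in the knockout libraries, against 34.1%, 16.7% and 29.7% in the control libraries. RUNX2 overlapped between the groups, with 35.5%, 41.6% and 27.4% in the knockout libraries, against 26.4%, 26.9% and 29.9% in the control libraries. RUNX1 was thus the least abundant RUNX transcript per length in each knockout library, and the most abundant in each control library.

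**Figure D3:**
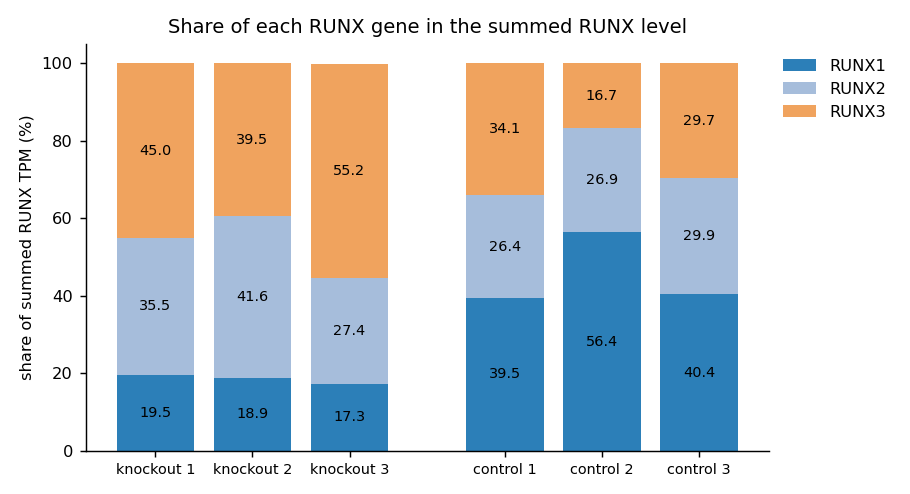
Share of RUNX1, RUNX2 and RUNX3 in the summed RUNX level of each library, in percent of TPM, with the 3 SKI knockout libraries on the left and the 3 control libraries on the right. The RUNX1 share is 17.3% to 19.5% in the knockout and 39.5% to 56.4% in the control.

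Ratios of members within a library, which do not depend on how libraries are scaled, were compared next. RUNX1 per length was 0.276, 0.352 and 0.241 of CBFB in the knockout libraries, against 0.728, 1.15 and 0.650 of it in the control libraries. The ratio of RUNX2 to RUNX1 was 1.82, 2.20 and 1.58 in the knockout libraries, against 0.667, 0.477 and 0.741 in the control libraries. RUNX3 to RUNX1 was at 2.31, 2.08 and 3.18 in the knockout libraries, against 0.863, 0.295 and 0.735 in the control libraries. In these 3 ratios the groups did not overlap, and each had a two-sided exact permutation p of 0.1, the smallest that 3 against 3 libraries allow, or 0.133 adjusted over the 4 ratios. The log2 differences of the ratios, knockout minus control, were -1.51, 1.58 and 2.12. CBFA2T3 to CBFA2T2 was at 4.19, 3.94 and 3.81 in the knockout libraries, against 4.39, 3.84 and 4.13 in the control libraries, with a log2 difference of -0.05 (two-sided exact permutation p = 0.6).

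The transcripts whose course over the 6 libraries came closest to RUNX1 were sought among 10567 other genes at or above a mean log2 CPM of 2, by the root mean square difference of mean-centred log2 CPM. LYST, a regulator of lysosome size whose loss affects granulocyte granules, differed from RUNX1 by 0.173 on the log2 scale, with 10.9, 11.4 and 5.83 CPM in the knockout libraries, against 22.3, 33.6 and 20.8 CPM in the control libraries. IRX5, a homeobox gene, differed by 0.174, with 3.34, 5.15 and 2.82 CPM in the knockout libraries, against 9.16, 12.5 and 9 CPM in the control libraries. Like RUNX1, both genes were lower in every knockout library than in any control library, and both were highest in replicate 2 of each group. Closest of all, at 0.136, was the microRNA gene MIR636, whose exon overlaps SRSF2 on the same strand, so its reads may be those of SRSF2. Closest to RUNX3 were BPHL, a hydrolase gene, at 0.0628, OLIG2, a transcription factor gene of the oligodendrocyte lineage, at 0.0708, and RP11-155D18.14 at 0.0865. BPHL had 6.36, 6.54 and 6.08 CPM in the knockout libraries, against 4.39, 2.83 and 3.96 CPM in the control libraries, and itself missed the threshold (adjusted p = 0.0519), as did OLIG2 (0.0760). No other member was near RUNX1 in this measure, the least distant being CBFB at 0.814, and RUNX3 was the farthest at 1.18. The order rests on 3 libraries a group. Genes with the same fold change and the same course over the replicates come out close by construction, so features they share with RUNX1 or RUNX3 are no separate result.

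Among 117 genes of 5 lists of RUNX and ETO partners, modifiers and targets, 92 had enough counts to be tested, of which 14 were called higher and 16 lower. That is 15.2% higher and 17.4% lower, beside 6.19% and 5.63% of all genes tested. The lists were written with earlier results of these data known, and SKI itself is among the lower calls. The shares therefore describe the lists and are not a test of them. The calls included TAL1, ZBTB16 and FLT3, which passed the low-count filter through the group where they were high, and without them 13 were higher and 14 lower. Of the 16 called lower, 6 lie on chromosome 19, where the median log2 fold change over 665 genes was -0.48. With chromosome centring, 12 of the 14 and 12 of the 16 kept their calls. The calls lost were those of PIM1 and VEGFA on chromosome 6, SIN3B, PRMT1 and CARM1 on chromosome 19, and CTSG on chromosome 14.

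The list of ETO complex partners had 22 members, all tested. Higher calls numbered 3 and lower calls 4, or 2 and 3 without TAL1 and ZBTB16. With both included, 31.8% of the list was called, beside 11.8% of all genes tested. The median log2 fold change was -0.15, against -0.01 over all genes tested. Among the E-protein genes, TCF3, which encodes E2A, averaged 117 ± 2.71 CPM in the knockout and 256 ± 23.2 CPM in the control (SD, n = 3 each). It fell by 1.12 on the log2 scale (adjusted p = 0.000972), or by 0.63 after centring on chromosome 19 (adjusted p = 0.0221). TCF4, or E2-2, fell to 2.67 ± 0.984 CPM in the knockout, against 12.9 ± 3.09 CPM in the control (SD, n = 3 each, adjusted p = 0.00114). TCF12, or HEB, another E-protein that ETO proteins bind, was at -0.06 (adjusted p = 0.921). TAL1, a helix-loop-helix factor that pairs with E-proteins, had 0.289, 0.186 and 0.267 CPM in the knockout libraries and no reads in the control libraries, at least 4.46-fold higher with a floor of 3 counts per library. TAL1 passed the low-count filter through the knockout libraries alone, with 16, 9 and 14 counts there, so its call is not read as a result. It was not tested without knockout replicate 3 or with a minimum of 1 CPM in 3 libraries. GFI1B, a repressor of the erythroid and megakaryocyte lineages, was at 1.29 ± 0.330 CPM in the knockout and 0.257 ± 0.0879 CPM in the control (SD, n = 3 each, adjusted p = 0.00313). Markers of erythroid cells summed to 0.361 to 0.828 CPM in the knockout and 1.94 to 2.62 CPM in the control, with HBA1 and ALAS2 without a read, and those of megakaryocytes to 0.438 to 0.795 CPM in the knockout and 0.690 to 1.09 CPM in the control, with PF4 and GP1BA without a read.

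Among the co-repressor subunits that ETO proteins recruit, NCOR1 was at -0.12 (adjusted p = 0.798) and HDAC3 at -0.06 (adjusted p = 0.834) on the log2 scale. TBL1X, a subunit of the NCoR complex, rose by 0.69 (adjusted p = 0.0161), and SIN3B, a scaffold of another deacetylase complex, fell by 0.79 (adjusted p = 0.0185). The SIN3B log2 fold change was -0.29 after chromosome centring (adjusted p = 0.408), and its call was lost without control replicate 2 (0.0588) or control replicate 3 (0.103). ZBTB16, which encodes the repressor PLZF, had 6, 16 and 8 counts in the knockout libraries, against 21, 52 and 64 counts in the control libraries. It passed the low-count filter through the control libraries, and its call is likewise not read as a result. TBL1X lost its call without knockout replicate 1 (adjusted p = 0.0535), control replicate 2 (0.0920) or control replicate 3 (0.0596). Without either control replicate 2 or control replicate 3, 2 genes of the list were called lower instead of 4.

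Of 26 RUNX cofactors and modifying enzymes, 23 could be tested. PIM1 was the 1 that rose and 4 fell, so 21.7% of those tested were called, beside 11.8% of all genes tested. The median log2 fold change was -0.20, against -0.01 over all genes tested. The arginine methyltransferase genes CARM1 and PRMT1, whose products modify RUNX1, fell by 0.84 (adjusted p = 0.0204) and 0.69 (adjusted p = 0.0230) on the log2 scale. Both lie on chromosome 19, and after centring they were at -0.33 (adjusted p = 0.391) and -0.18 (adjusted p = 0.581). CDK6, a kinase that binds RUNX1, had 42.5, 42.8 and 31.5 CPM in the knockout libraries, against 62.2, 61.4 and 60.3 CPM in the control libraries (adjusted p = 0.0209). SKP2, a ubiquitin ligase subunit, fell by 0.65 (adjusted p = 0.0300), and PIM1, a kinase that phosphorylates RUNX proteins, rose by 1.06 (adjusted p = 0.0114). Centred on chromosome 6, PIM1 was at 0.64 (adjusted p = 0.1). The count of genes called lower was 1 when knockout replicate 1 or control replicate 1 was left out, and 0 when control replicate 2 or control replicate 3 was. PIM1 lost its call without control replicate 2 (0.0525) or control replicate 3 (0.0728). CDK6 lost its call without control replicate 1 (0.0726), control replicate 2 (0.0808) or control replicate 3 (0.0803). With all 6 libraries the CDK6 call was also lost when scaled by library totals (edgeR adjusted p = 0.057). SKP2 lost its call without knockout replicate 1 (0.0981), control replicate 1 (0.0843), control replicate 2 (0.0852) or control replicate 3 (0.117). The acetyltransferase gene EP300 was at 0.02 (adjusted p = 0.982).

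The partner transcription factors of RUNX1 had 24 genes, 23 of them tested. In this group 4 were called higher and 3 lower, SKIL among the first and SKI among the second, or 3 and 3 without TAL1. With TAL1 included, 30.4% of those tested were called, beside 11.8% of all genes tested. The median log2 fold change was -0.13, against -0.01 over all genes tested. SKIL, the paralogue of SKI, had 15.1, 9.79 and 10.5 CPM in the knockout libraries, against 2.57, 4.23 and 3.89 CPM in the control libraries (adjusted p = 0.00193). CEBPA, a factor of granulocyte commitment that acts with RUNX1, fell to 82.7 ± 20.4 CPM in the knockout, against 264 ± 52.3 CPM in the control (SD, n = 3 each, adjusted p = 0.000823). Its log2 fold change was -1.67, or -1.17 after centring on chromosome 19 (adjusted p = 0.00642). CEBPE, needed for late granule formation, fell by 1.27 on the log2 scale (adjusted p = 0.00194). ETS1, which binds DNA together with RUNX1 and relieves its autoinhibition, had 157, 178 and 154 CPM in the knockout libraries, against 80.3, 60.3 and 115 CPM in the control libraries (log2 0.94, adjusted p = 0.0155). ETS1 lost its call without control replicate 1 (0.0521) or control replicate 2 (0.0691). CEBPB rose by 0.58 (adjusted p = 0.0455), a call kept without knockout replicate 2 alone among fits with 1 library left out, with adjusted p from 0.0637 to 0.148 in the other 5. With all 6 libraries the call was lost in limma-voom (adjusted p = 0.0534). SPI1, which encodes PU.1, was at -0.42 (adjusted p = 0.0767) and MYB at -0.58 (adjusted p = 0.0879). Without knockout replicate 3, control replicate 1 or control replicate 2, 2 genes of this list were called higher instead of 4.

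Of 40 blood cell genes that RUNX1 is known to regulate, 28 could be tested. Higher calls numbered 7 and lower calls 6, or 7 and 5 without FLT3. With FLT3 included, 46.4% of those tested were called, beside 11.8% of all genes tested. The median log2 fold change was 0.02, against -0.01 over all genes tested. The granule protease gene PRTN3 fell to 0.628 ± 0.605 CPM in the knockout, against 11.2 ± 2.68 CPM in the control (SD, n = 3 each, adjusted p = 0.000794). Its log2 fold change was -4.18, and -5.30 without knockout replicate 2, whose 1.32 CPM was the highest of the knockout. After centring on chromosome 19, PRTN3 was at -3.67 (adjusted p = 0.00154). CSF3R, the receptor for G-CSF, rose 2.42-fold (adjusted p = 0.000795), and CSF2RB, the common chain of the GM-CSF, IL-3 and IL-5 receptors, rose 4.87-fold to 1.55 ± 0.341 CPM in the knockout, against 0.315 ± 0.0687 CPM in the control (SD, n = 3 each, adjusted p = 0.00203). CDKN1A, which encodes p21, had 9.05, 2.17 and 15.8 CPM in the knockout libraries, against 0.879, 0.390 and 0.599 CPM in the control libraries (adjusted p = 0.00263). The CDKN1A log2 fold change was 3.86, and 3.21 without knockout replicate 3. Markers of mature neutrophils summed to 3.89 to 5.37 CPM in the knockout and 0.687 to 1.07 CPM in the control. CXCR2 alone of that list reached 1 CPM in any library, and S100A8, S100A9, FCGR3B, MMP9 and LTF stayed under it. FCGR3B was without a read. Only 2 of the markers were tested, and both were called higher, beside 6.19% of all genes tested. Whether they passed the low-count filter through the knockout libraries alone was not checked, so these calls are not read as a result. Without control replicate 3, 4 genes of the list were called higher instead of 7. The count of genes called lower was 3 without knockout replicate 1, 2 without control replicate 1 and 3 without control replicate 3. Another 12 genes of the list, among them CSF1R, CD34 and KIT, had too few counts to be tested. The list holds genes that RUNX1 activates and genes that it represses, so its median is a description without a predicted sign.

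**Figure D4:**
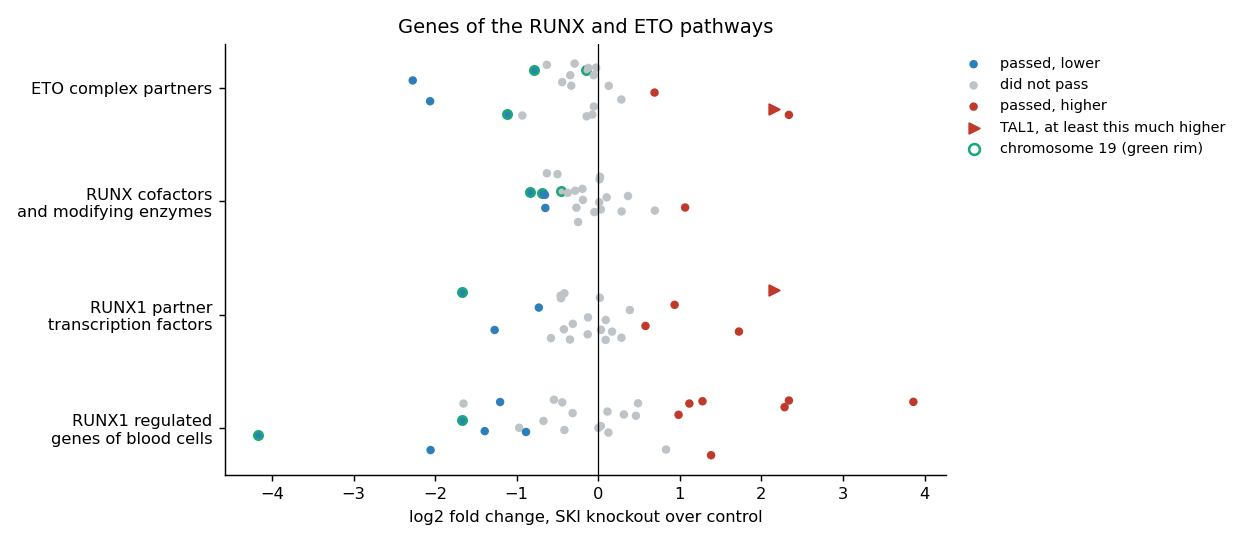
Log2 fold change of each tested gene of 4 lists, SKI knockout over control, on the horizontal axis. Red points passed an adjusted p of 0.05 as higher, blue points as lower and grey points did not pass, green rims mark chromosome 19 and the triangles place TAL1 at the lower bound set by its floor in the control, and vertical scatter within a list carries no value. Calls lie on both sides of 0 in each list.

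The authors' deposited table puts RUNX1 at -1.29 on the log2 scale (adjusted p = 1.46e-06) and RUNX3 at 0.66 (adjusted p = 0.0108). The same deposited table holds no adjusted p under 0.05 for RUNX2 (0.599), CBFB (0.744), CBFA2T2 (0.674) or CBFA2T3 (0.785).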

How the data were processed

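The authors deposited raw counts for each gene, together with its length, made with TopHat2 and Subread's featureCounts on hg19 (GRCh37), per the submitters' processing notes. Software versions, the annotation, the strand setting and the handling of shared reads were not given in the sources used here. Another table of the authors gives a size-factor-scaled signal in read units, which, rescaled, matched the raw counts (zeros set to 1) within 2.74e-09 reads. It also holds the authors' log2 fold changes, a test score and p-values. The notes name DESeq and DESeq2.

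The members, gene lists and tests were chosen with earlier results of these data known. Columns were matched to libraries by group and replicate number. Genes kept by filterByExpr (16340 of 56638; about 10 counts in 3 libraries) were scaled by TMM and tested with edgeR's quasi-likelihood test, group as the only term, Benjamini-Hochberg adjustment over all tested genes and a threshold of 0.05. Every adjusted p in the text is from this fit unless another is named. Standard errors were derived from the F statistic and intervals from its degrees of freedom. CPM use TMM-scaled library sizes. Log2 CPM use a prior count of 2. Genes named are the members, SKI, SKIL, up to 6 called genes per list with the smallest p, genes behind counts of 5 or fewer, genes whose exons overlap a member's, and the 3 genes closest to each called member. The genes of lists that did not pass, and MPO, ELANE, AZU1 and CTSG as markers, were named for their roles, and 1 gene of the lists is not reported here. Chromosomes and exon overlaps are from GENCODE release 29 by symbol, found for 80.6% of tested genes. Alternatives were other scalings, filters and tests (DESeq2 1.42.0, limma-voom), a replicate block, chromosome centring and leaving libraries out. R 4.3.3, edgeR 4.0.16 and limma 3.58.1 were used. The scripts were tested on simulated data.

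Floors cover counting error only, since reads without molecular identifiers are not independent molecules. Promoter windows were trimmed to the bases before each start.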

Additional observations from a re-analysis of the deposited data

How the results depend on the processing

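The calls of RUNX1 and RUNX3 held under DESeq2's size factors, library totals, keeping all genes, a minimum of 1 CPM in 3 libraries, limma-voom, the DESeq2 test and chromosome centring, and no alternative called another member. With 1 library left out, log2 fold changes ranged from -1.60 to -1.12 for RUNX1, -0.04 to 0.50 for RUNX2, 0.50 to 0.80 for RUNX3, 0.02 to 0.19 for CBFB, 0.02 to 0.29 for CBFA2T2 and -0.07 to 0.27 for CBFA2T3. RUNX2 turned to -0.18 with chromosome centring and -0.037 without knockout replicate 2, and CBFA2T3 to -0.070 without knockout replicate 1 and -0.005 without control replicate 2. In alternatives chosen after the data were examined, RUNX3 was at 0.51 (adjusted p = 0.161) without both replicate 2 libraries and kept its call without knockout replicate 3 and control replicate 1, and RUNX1 kept its call in both. Genes called numbered 740 to 2488 with 1 library left out and 1187 without both replicate 2 libraries, against 1932. Genes called higher numbered 440 to 1410 with 1 library left out and 1630 with no filter, against 1012. Genes called lower numbered 300 to 1078 with 1 library left out, 561 with chromosome centring and 487 without both replicate 2 libraries, against 920. The cause of these differences was not tested. Replicate numbers were not shown to pair libraries: deviations of same-numbered libraries correlated at -0.185, 0.416 and -0.095, and the closest pair was knockout replicate 3 with control replicate 1 (0.542). With the replicate number as a block RUNX1 was at -1.40, RUNX3 at 0.72, and 2107 genes were called. CEBPB had no call under the block (adjusted p = 0.0563), which changed no other call among the members and the called list genes.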
